A study of Caenorhabditis elegans with 8 samples.

Results

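The nlp genes encode the neuropeptide-like proteins of Caenorhabditis elegans, and 78 genes of the deposited table carried a symbol made of nlp and a number among 46916 genes in all. Of these, 71 were named so by the Ensembl annotation of their WormBase gene identifier and 7 (nlp-10, nlp-88, nlp-89, nlp-90, nlp-91, nlp-99 and nlp-119) by the RefSeq annotation of the same identifier. All 78 were protein-coding, in a table with 19963 protein-coding genes. They lay on all 6 nuclear chromosomes, with 22 on X, 18 on V, 12 on IV, 11 on II, 8 on III and 7 on I.

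The libraries measured RNA that co-purified with FLAG-tagged ADR-1 from synchronised first-stage (L1) larvae hatched without food, with whole-animal lysate RNA as input. The control strain HAH25 lacked endogenous adr-1 (allele tm668) and expressed 3XFLAG ADR-1 from the pan-neural rab-3 promoter on the extrachromosomal array blmEx20, which also carries GFP under the same promoter. Both constructs of the array end in the untranslated region of unc-54, a muscle marker used below, so their RNA could be counted as unc-54. Strain HAH26 carried the same array and adr-1 deletion and also lacked adr-2 (allele ok735), and is called adr-2(-) here. Each of the 4 groups (input and immunoprecipitate, or IP, of each strain) held 2 biological replicates. No IP from animals without tagged ADR-1 was analysed here, so a value in an IP was set against the input only. An extrachromosomal array can be lost from some cells, and the inputs hold every tissue of the larva whereas the tagged protein was driven in neurons.

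Neuropeptides are cut from larger precursors, mostly at pairs of basic residues, by the proprotein convertase EGL-3, trimmed by the carboxypeptidase EGL-21 and packed into dense core vesicles, from which they act on G protein-coupled receptors. The nlp symbol was given to precursors that belong neither to the FMRFamide-related (flp) nor to the insulin-like (ins) families, and it covers unlike molecules. Besides neural peptides it includes glycine-rich antimicrobial peptides of the epidermis, of which nlp-29 is induced by fungal infection and wounding. ADR-1 is a double-stranded RNA-binding relative of the RNA-editing enzyme ADR-2 that does not itself deaminate adenosine.

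The 2 kinds of precursor differ in their coding sequence, which is shown here because several of the larger differences between libraries lay in the glycine-rich epidermal genes. The nlp-29 gene (chrV:3984425-3984847, plus strand, ce11) has 222 coding bases including the stop codon, printed with its 26 glycine codons in capitals. The nlp-3 gene, which stimulates egg laying (chrX:13177856-13178447, minus strand), has 273 coding bases, printed with its 10 codons for adjacent lysine or arginine residues in capitals.
nlp-29: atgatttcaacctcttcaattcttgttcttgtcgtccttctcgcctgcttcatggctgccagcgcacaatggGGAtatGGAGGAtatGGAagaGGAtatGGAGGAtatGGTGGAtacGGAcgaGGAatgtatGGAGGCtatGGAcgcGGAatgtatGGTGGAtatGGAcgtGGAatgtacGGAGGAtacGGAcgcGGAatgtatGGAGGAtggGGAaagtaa
nlp-3: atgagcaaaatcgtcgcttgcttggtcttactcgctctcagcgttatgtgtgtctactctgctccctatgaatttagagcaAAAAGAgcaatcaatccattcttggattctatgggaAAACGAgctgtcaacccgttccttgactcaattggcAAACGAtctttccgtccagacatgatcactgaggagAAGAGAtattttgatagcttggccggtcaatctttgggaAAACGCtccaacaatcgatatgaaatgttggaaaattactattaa

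Glycine made up 35.6% of the 73 codons of nlp-29 and a median of 5.83% over the 78 genes. It reached at least 25% in 10 genes (nlp-24 to nlp-33), which include 6 of the 7 genes of the epidermal antimicrobial group (nlp-27, nlp-28, nlp-29, nlp-30, nlp-31 and nlp-33). The remaining gene of that group, nlp-34, had 18.6%. A pair of adjacent basic codons was present in 69 of the 78 genes, up to 13 sites in nlp-16 and in nlp-14, an orcokinin-like precursor, and absent from 9, of which 6 were among the 10 glycine-rich genes. The nlp-24 gene had the highest share of glycine (41.25%) and no such pair, although it is classed here by a known neural role.

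Of the epidermal genes, 6 form a cluster of 10.9 kb on chromosome V (chrV:3978825-3989770). The first 60 coding bases of each follow with capitals where a base equals that of nlp-29 at the same position. They are shown because like genes could share reads.
nlp-29: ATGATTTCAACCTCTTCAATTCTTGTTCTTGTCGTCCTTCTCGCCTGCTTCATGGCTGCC
nlp-27: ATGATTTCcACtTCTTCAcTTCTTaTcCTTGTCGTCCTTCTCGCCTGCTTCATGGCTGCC
nlp-28: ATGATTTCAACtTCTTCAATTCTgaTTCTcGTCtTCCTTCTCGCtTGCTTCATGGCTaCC
nlp-30: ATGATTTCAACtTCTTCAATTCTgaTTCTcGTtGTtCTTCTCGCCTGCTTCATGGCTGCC
nlp-31: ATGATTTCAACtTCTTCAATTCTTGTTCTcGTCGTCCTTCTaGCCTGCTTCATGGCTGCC
nlp-34: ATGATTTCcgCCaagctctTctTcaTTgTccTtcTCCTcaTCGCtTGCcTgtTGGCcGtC

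Over these 60 bases nlp-31 was equal to nlp-29 at 57 positions, nlp-27 at 55, nlp-30 at 54, nlp-28 at 53 and nlp-34 at 34. None of the 6 had a 100-base stretch of spliced transcript, the read length used, that occurred elsewhere in the genome or in another gene's transcript. The same held for 76 of the 78 genes. The exceptions were nlp-81, with 45.9% of its 100-base windows not unique, and nlp-99, with 14.3%, so their values are less certain.

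The IPs were sequenced more deeply than the inputs. The inputs held 2595323 to 2969937 reads and the IPs 20950842 to 79185012, and the ribosomal RNA rrn-3.1 was the most abundant gene in every library at 13.9% to 49.6% of reads. The nlp genes together held 3046 to 3851 input reads and 31916 to 61435 IP reads. In the deposited unit, the normalised count (reads divided by a size factor per library), 1 read was worth 2.63 to 3.01 in the lysates of the control, 6.40 to 8.91 in those of adr-2(-) and 0.151 to 0.324 in the IPs, so that 3 reads corresponded to 7.90 to 26.7 normalised counts in inputs. All 10 neuronal markers (rab-3, unc-119, egl-3, unc-31 and others) were above 0 in every library. The adr-1 gene was listed at 0 in all 8 libraries and adr-2 was not analysed here, so neither deletion could be checked. The value of 0 also goes against the tagged ADR-1 that these strains express and that was precipitated, so the RNA of the transgene could not be seen either. One library stood apart for these genes. In adr-2(-) IP replicate 2 they held 0.323% of protein-coding reads, against 0.128% to 0.159% in the other 3 IPs. This library also differed in general, with the fewest reads of the IPs (20950842). Its share of rrn-3.1 was 13.9%, against 43.1% to 49.6% in the other 3 IPs.

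Most nlp genes had reads in L1 larvae. At least 3 reads were present in both control inputs for 63 of the 78 genes (80.8%), where 60.9% of all protein-coding genes passed the same limit, and in both adr-2(-) inputs for 65 genes. All 4 inputs passed it for 62 genes (79.5%, against 51.4% of protein-coding genes). With a limit of 10 reads in all 4 inputs the number was 45 (57.7%, against 36.4%). In the deeper IPs 71 genes had at least 3 reads in all 4 libraries.

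**Figure D1:**
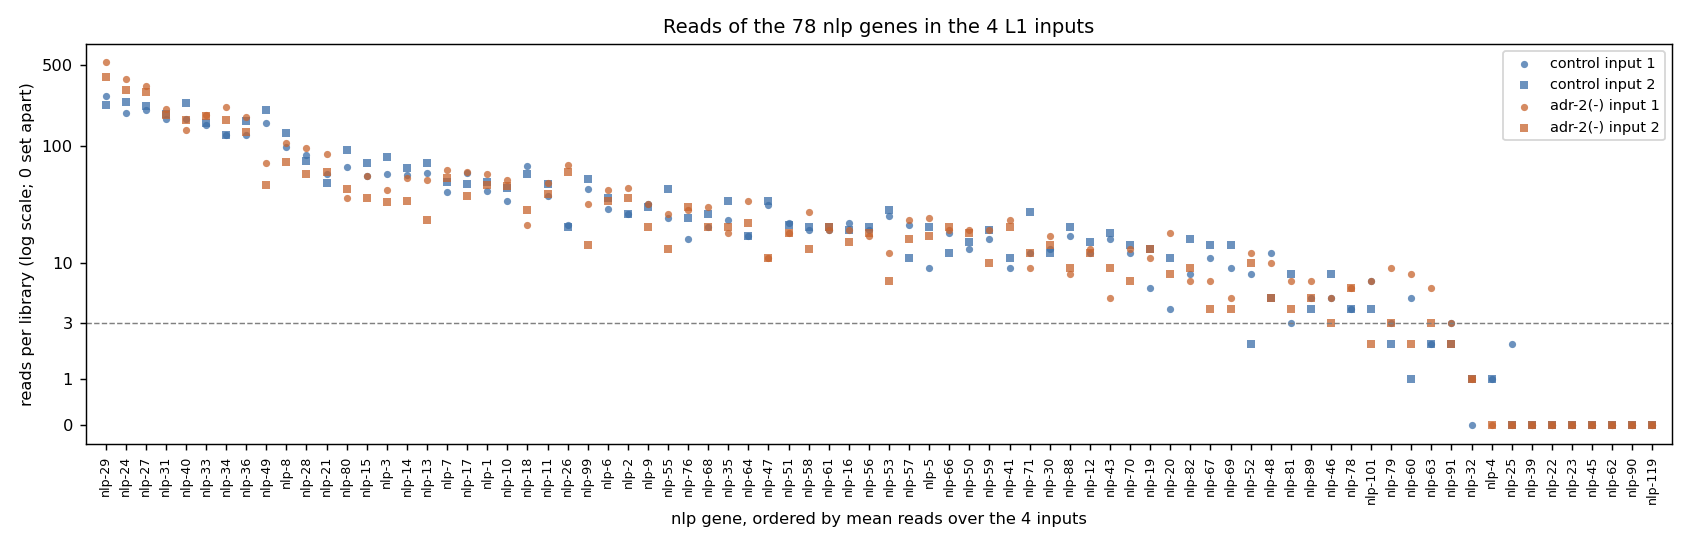
Reads of each of the 78 nlp genes in the 4 inputs (log scale, genes ordered by mean reads, blue circles and squares for control replicates 1 and 2, orange for adr-2(-), dashed line at 3 reads, 0 drawn below 1). The epidermal genes nlp-29, nlp-27 and nlp-31 and the glycine-rich nlp-24, classed here by a known neural role, lead, and 7 genes have no read in any input.

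No input read was counted for 7 genes, namely nlp-22, nlp-23, nlp-39, nlp-45, nlp-62, nlp-90 and nlp-119. A count of 0 allows up to 3 reads, so low expression was not detectable at this depth. The RPamide precursor nlp-22, which promotes larval sleep from the RIA neurons, had 1 read in control IP replicate 1 and none elsewhere. Of the 7, nlp-45 had the most IP reads, with 21 and 11 in the control IPs and 14 and 3 in the adr-2(-) IPs. The related RPamide gene nlp-23 had 3 reads in control IP replicate 2 and 2 in adr-2(-) IP replicate 2. Only nlp-62 had no read in any of the 8 libraries. A further 9 genes fell below 3 reads in at least 1 input, among them nlp-4, nlp-25 and nlp-32, which did not exceed 2 reads in any input.

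The most abundant nlp transcripts per kb of exon were epidermal. In the control inputs the highest levels were those of nlp-29 (1971 normalised counts per kb), nlp-27 (1893), nlp-24 (1597), nlp-34 (1320), nlp-33 (1258), nlp-36 (1152) and nlp-31 (1119), followed by nlp-49 (847), nlp-40 (794) and nlp-28 (672). The first 2 differed by less than the spread of the nlp-29 replicates, which read 800.1 and 596 normalised counts. In the adr-2(-) inputs the first 5 places fell to nlp-29, nlp-27, nlp-24, nlp-34 and nlp-33, as in the control, with nlp-29 at 9645 per kb. In the control IPs the mean level of nlp-24, which encodes opioid-like peptides acting through the receptor NPR-17, was 2481 per kb, that of nlp-33 was 1296 and that of nlp-29 was 869, while nlp-27 stood at 261 and nlp-34 at 180 per kb. The place of nlp-24 rested on replicate 1 (4461 per kb). In replicate 2 it stood at 502, below nlp-31 (1035), nlp-49 (935), nlp-29 (593) and nlp-33 (565).

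The next comparison asked how the lysates of the 2 strains differed. Of protein-coding reads, the nlp genes held 0.155% and 0.147% in the control lysates and 0.210% and 0.223% in those of adr-2(-). The epidermal antimicrobial genes accounted for 0.0516% and 0.0427% in the control and 0.0859% and 0.0927% in adr-2(-). The other 71 genes held 0.104% and 0.105% in the control and 0.124% and 0.130% in adr-2(-). In both groups of genes the 2 strains did not overlap. In bulk lysates a change in the number of cells of a type and a change in RNA per cell cannot be told apart.

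For single genes the test was limma on log2(normalised count + 1) with all 8 libraries and Benjamini-Hochberg adjustment over the 13276 genes whose mean normalised count was at least 10. This filter kept 67 of the 78 nlp genes and left out nlp-4, nlp-22, nlp-23, nlp-25, nlp-32, nlp-39, nlp-45, nlp-62, nlp-90, nlp-91 and nlp-119. The median log2 change of the 67 from control to adr-2(-) inputs was 1.41, against 0.01 over all genes tested, and 64 of the 67 were above 0. Both adr-2(-) inputs exceeded both control inputs for 55 of the 67 (82.1%), where 38.3% of all genes did so, and both were lower for 1, where 37.1% of all genes did so. With an adjusted p under 0.05 and a log2 change of at least 1, 8 nlp genes rose (11.9%, background 5.03%) and none fell (background 9.36%). At an adjusted p under 0.001 (the paper's threshold for ADR-1 binding) limma and edgeR called 0 nlp genes and DESeq2 called 1. Without adjustment 34 of the 67 had a limma p under 0.05 for a higher value (50.7%, background 15%) and 0 for a lower one (background 18.4%). Leaving out any 1 of the 4 inputs left 0 calls. Leaving out an IP gave 18 and 17 (control replicates 1 and 2) and 16 and 12 (adr-2(-) replicates 1 and 2), so the number also depended on the IPs, which share the estimate of the spread.

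The shift depends on scaling in its absolute size. With every library set to the same total the median of all genes became -1.25 and that of the nlp genes 0.13, and with the same protein-coding total the medians were -0.96 and 0.42. Set against all genes, the nlp median was higher by 1.39 as deposited and by 1.38 under both of these scalings. The number of nlp genes that rose fell to 0 and 1, respectively.

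The 8 genes that rose were nlp-29, nlp-36, nlp-7, nlp-41, nlp-31, nlp-21, nlp-10 and nlp-76. For nlp-29 the control inputs read 800.1 and 596 normalised counts and the adr-2(-) inputs 3355 and 3473, a 4.89-fold ratio of means. All its adr-2(-) inputs lay above all its control inputs, and its log2 change was 2.30 ± 0.42 (SE; limma adjusted p = 0.0135). It was the 1 gene that kept its call with the same protein-coding total (log2 change 1.31, adjusted p = 0.0375), and it lost the call with the same library total (1.01, adjusted p = 0.183). For nlp-31, another antimicrobial gene of the cluster, the values were 511 and 498 in the control and 1338 and 1639 in adr-2(-), a log2 change of 1.55 ± 0.39 (limma adjusted p = 0.0348). For nlp-36 they were 376 and 435 against 1146 and 1176 (log2 change 1.52 ± 0.36, limma adjusted p = 0.0287).

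Among the other genes that rose, nlp-7, whose peptides inhibit egg laying, read 120.3 and 129 in the control inputs against 397 and 472 in adr-2(-) (log2 change 1.79 ± 0.44, limma adjusted p = 0.0325). The nlp-21 gene, with 10 basic sites, read 171 and 126 against 551 and 534 (log2 change 1.87 ± 0.48, limma adjusted p = 0.0374). In each the strains did not overlap.

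The last 3 have no assigned role here. For nlp-41 the control inputs read 27.07 and 28.98 and those of adr-2(-) 147 and 178 (log2 change 2.49 ± 0.62, limma adjusted p = 0.0337). For nlp-10 the values were 102 and 116 against 327 and 401 (1.72 ± 0.47, limma adjusted p = 0.0439). The nlp-76 gene was nearest to the threshold, with 48.1 and 63.2 against 179 and 267 (1.97 ± 0.56, limma adjusted p = 0.0497).

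The remaining 5 epidermal genes also read higher in both adr-2(-) inputs, with log2 changes of 1.33 to 2.03 and limma adjusted p from 0.0627 to 0.196, so that none of them passed. For nlp-27 the control inputs read 617 and 579.7 and the adr-2(-) inputs 2113 and 2592, with an SE of 0.97 on a log2 change of 1.97. The glycine-rich nlp-26, which lies outside the cluster, had the highest log2 change of all 67 at 3.04 ± 0.87 (limma adjusted p = 0.051), from 63.2 and 52.7 to 435 and 534. Over the 8 glycine-rich genes tested the median was 1.83, against 1.41 over all 67.

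**Figure D2:**
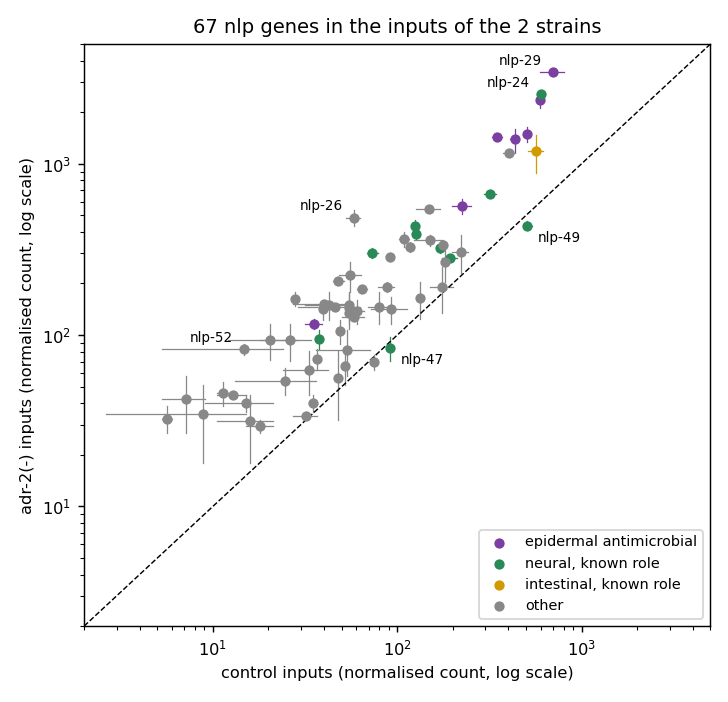
Mean normalised count of 67 nlp genes in the control inputs (x axis) and the adr-2(-) inputs (y axis), both log scales, with bars joining the 2 replicates, colours for the role of the gene and a dashed line of equality. Of the 67 genes 64 have a fitted change above 0, with nlp-29 at the top and nlp-49, nlp-47 and nlp-53 on or under the line.

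Fitted changes below 0 in the inputs were found for 3 genes, none of which passed. They were nlp-49, a ligand of the receptor SEB-3 that promotes arousal (log2 change -0.22 ± 0.57), nlp-47, which encodes a peptide of the gonadotropin-releasing hormone and adipokinetic hormone type (-0.14 ± 0.62), and nlp-53 (-0.10 ± 0.54). For nlp-49 the control inputs read 478 and 538 and the adr-2(-) inputs 461 and 409.7. Its 2 strains did not overlap, but the difference was smaller than its SE. The signs of nlp-47 and nlp-53 each turned when 1 adr-2(-) input was left out.

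Exonic length and the markers of several tissues differed along with the nlp genes in the inputs. The nlp genes are short, with a median exonic length of 523 bases against 1406 over all genes tested. Across genes, the log2 change in the inputs and exonic length had a Spearman's rho of -0.42 over 67 nlp genes and -0.49 over 13272 genes. Among genes under 600 bases the median change was 1.52 for 41 nlp genes and 1.35 for 1379 genes of all kinds. Among those of at least 600 bases it was 1.30 for 26 nlp genes and -0.13 for 11893 genes. The summed level of 8 intestinal markers was 70146 and 80835 in the control inputs and 189550 and 210320 in adr-2(-), with 8 of 8 fitted changes above 0 and a median log2 change of 1.21. That of 6 germline markers was 2990 and 3157 against 557 and 882, with 4 of 6 lower at an adjusted p under 0.05 and a median of -2.75. That of 8 epidermal markers was 7291 and 8034 against 14152 and 16138, of which sqt-3 alone made up 5697 and 6345 against 12423 and 14526, whereas the median over the 6 tested was -0.25, with 3 above 0 and 1 called lower. Muscle markers (7 genes, median -0.64) summed to 38628 and 40207 against 35654 and 41495, and neuronal markers (10 genes, median -0.36) to 5201 and 5178 against 4969 and 4703. All genes of these lists were above 0 in every input. For the germline marker mex-5 the deposited mean did not equal that of its 8 values. It made up 1375 and 1576 of the germline sums in the control inputs and 76.8 and 143 in adr-2(-). The part of length and of tissue content in the nlp difference was not tested.

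The IPs were then set against the inputs of each strain, the comparison that asks which transcripts co-purified with neural ADR-1. As deposited, limma called no nlp gene higher in the IP of either strain. In the control the median log2 ratio of IP to input was -0.12 over the 67 nlp genes (-0.36 with the same library total and 0.08 with the same protein-coding total) and 0.11 over all genes. None passed an adjusted p of 0.05 (background 0.535% higher and 2.84% lower) or of 0.001 (0% and 1.31%), by limma or by edgeR, whereas DESeq2 called 3 lower at 0.05 (nlp-27, nlp-28 and nlp-34) and none at 0.001. The background includes rows whose deposited mean did not equal that of the 8 values, such as mex-5 (control IPs 0 and 0, log2 ratio -10.52). None of these rows is an nlp gene. With the replicate number as a block limma called nlp-34 lower, and blocked edgeR nlp-27 and nlp-34. Leaving out either adr-2(-) IP gave the same 3 genes as DESeq2, leaving out control IP replicate 1 gave nlp-26 and nlp-36 lower, and leaving out control IP replicate 2 gave nlp-67 higher. Before adjustment limma gave a p under 0.05 for 1 higher gene (background 8.47%) and 6 lower ones (8.96%, background 9.99%). Both IPs exceeded both inputs for 12 genes (17.9%, background 26.1%) and were below both for 25 (37.3%, background 24.6%).

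In adr-2(-) the median was -0.70 for the nlp genes and 0.23 for all genes, and 10 nlp genes were lower in the IP at an adjusted p under 0.05 (14.9%, background 10.4%) and none was higher (background 14.3%). With libraries set to the same total or the same protein-coding total the nlp median turned positive, to 0.47 and 0.36, while that of all genes rose to 1.39 and 1.28, so that the nlp genes stayed 0.92 below all genes in each, against 0.93 as deposited. Under these scalings the calls were 7 higher with 7 lower and 8 higher with 7 lower. The higher genes were nlp-16, nlp-43, nlp-49, nlp-53, nlp-55, nlp-67 and nlp-99 in both, and nlp-12 with the same protein-coding total. At an adjusted p under 0.001 limma and edgeR called 0 (background 0.226% higher and 0.618% lower) and DESeq2 called 6 lower. Before adjustment limma gave a p under 0.05 for 1 higher gene (background 22.6%) and 18 lower ones (26.9%, background 16.2%). The number lower was 3 without either adr-2(-) input, 5 without adr-2(-) IP replicate 1 and 17 without replicate 2. Both IPs lay below both inputs for 32 genes (47.8%, background 30.7%) and above both for 6 (8.96%, background 39.1%). As a share of protein-coding reads, the epidermal antimicrobial genes fell from 0.0859% and 0.0927% (adr-2(-) lysates) to 0.0277% and 0.0427% (IPs). The other 71 genes went from 0.124% and 0.130% to 0.132% and 0.280%, the last being replicate 2. With the 10 glycine-rich genes left out, nlp lysate shares (0.111% and 0.116%) and IP shares (0.0946% and 0.266%) overlapped. Control IPs held 0.0258% and 0.0245% for the epidermal genes and 0.128% and 0.103% for the other 71.

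The 10 genes lower in the adr-2(-) IPs were nlp-29, nlp-34, nlp-28, nlp-27 and nlp-31 of the epidermal cluster, the glycine-rich nlp-26, and nlp-2, nlp-7, nlp-36 and nlp-76. The first 4 of these epidermal genes and nlp-2, nlp-26 and nlp-36 were also lower under both rescalings, while nlp-31, nlp-7 and nlp-76 kept their sign and lost the call.

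For nlp-29 the adr-2(-) inputs read 3355 and 3473 normalised counts and the IPs 349.9 and 595, a 7.23-fold difference of means and a log2 ratio of -2.90 ± 0.42 (limma adjusted p = 0.00374). In the control the same gene read 800.1 and 596 in the inputs and 406 and 209.8 in the IPs (log2 ratio -1.24 ± 0.42, limma adjusted p = 0.177). In both strains every IP of nlp-29 lay below every input.

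For nlp-34 the adr-2(-) values were 1370.3 and 1487 in the inputs and 33.5 and 208 in the IPs (log2 ratio -4.07 ± 0.75, limma adjusted p = 0.00842). In the control they were 370.0 and 327 against 32.9 and 62.1 (-2.91 ± 0.75, limma adjusted p = 0.0842, or 0.0400 with the replicate block by number and 0.0495 within strain). The nlp-34 groups did not overlap in either strain. For nlp-27 the adr-2(-) inputs read 2113 and 2592 and the IPs 44.2 and 463, so that its IPs differed widely from each other and still lay below both inputs (log2 ratio -4.01 ± 0.97, limma adjusted p = 0.0207).

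The epidermal group was not uniform. Its 7 genes had log2 ratios of -4.07 to -0.61 in adr-2(-), with a median of -2.90, and of -3.08 to 0.30 in the control, with a median of -1.24. The 2 that did not pass in adr-2(-) were nlp-30 and nlp-33. For nlp-33, an antimicrobial-type gene outside the cluster, the control inputs read 454 and 411 and the IPs 697 and 194, so the groups overlapped. For nlp-30, the least abundant of the group, the control inputs read 39.1 and 31.6 and the IPs 63.1 and 29.8. In adr-2(-) both IPs of each of these genes lay below both inputs. There nlp-33 read 1178 and 1603 in the inputs and 722 and 454 in the IPs, and nlp-30 109 and 125 against 72.0 and 80.1.

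**Figure D3:**
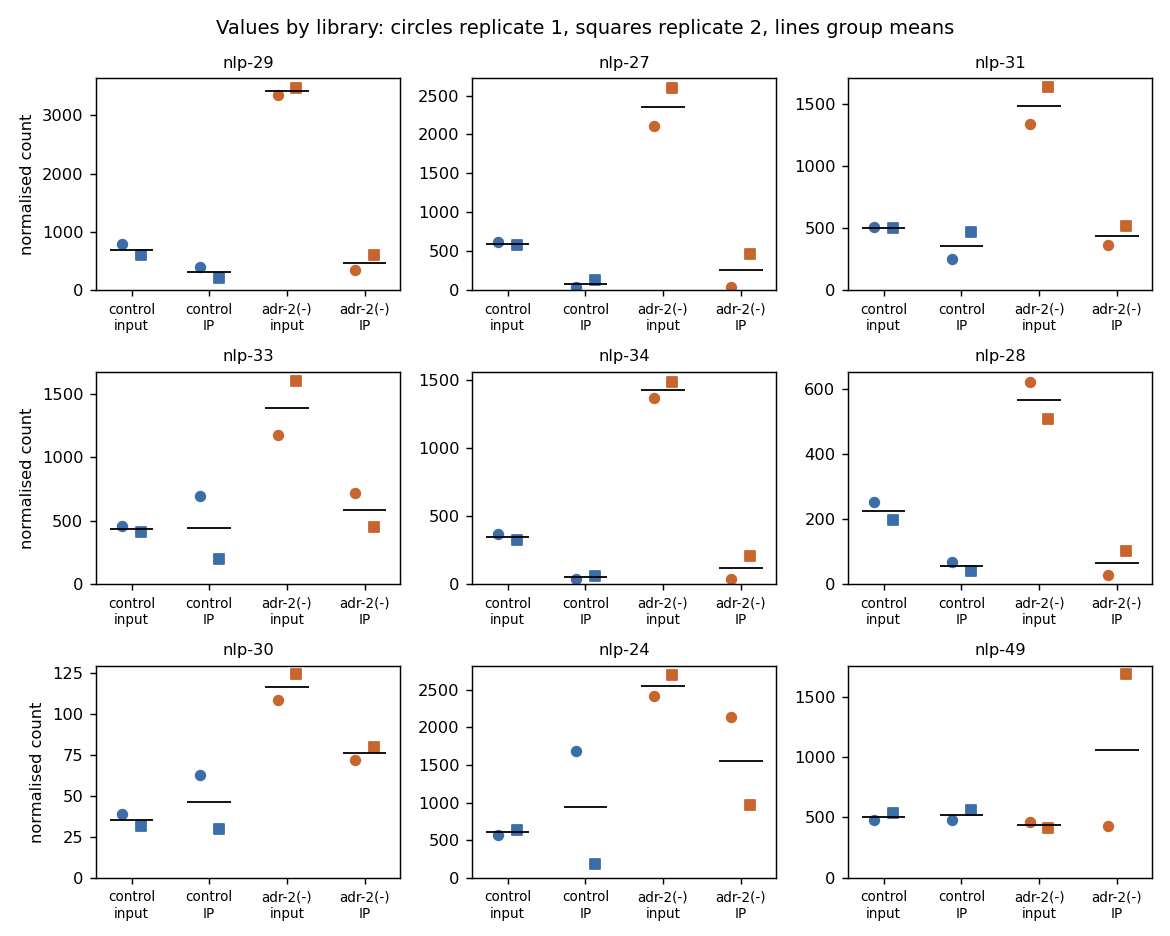
Normalised counts of the 7 epidermal genes, nlp-24 and nlp-49 in each library (circles replicate 1, squares replicate 2, black lines group means, blue control, orange adr-2(-), linear axes from 0). The adr-2(-) inputs of nlp-29 (3355 and 3473) stand above its other 6 values, whereas for nlp-49 the adr-2(-) IP replicate 2 (1692) stands above the other 7.

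Among genes with a known neural role, nlp-2, an RPamide precursor with 7 basic sites, had the lowest ratio of all 67 in adr-2(-). Its inputs read 282 and 321 and its IPs 5.89 and 42.5 (log2 ratio -4.12 ± 0.84, limma adjusted p = 0.0115). In the control its inputs read 78.2 and 68.5 and its IPs 10.2 and 21.1 (-2.24 ± 0.84, limma adjusted p = 0.212). The IPs of nlp-2 were below its inputs in both strains.

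The nlp-7 gene also passed in adr-2(-), with 397 and 472 in the inputs and 99.5 and 166 in the IPs (log2 ratio -1.74 ± 0.44, limma adjusted p = 0.0233). The other 8 neural genes tested did not pass in either strain as deposited, while nlp-49 in both rescalings and nlp-12 with the same protein-coding total passed as higher in the adr-2(-) IPs. For nlp-1, released by the AWC olfactory neurons, the control inputs read 123 and 129 and the IPs 69.6 and 70.8, a log2 ratio of -0.84 ± 0.53. For nlp-12, the cholecystokinin-like precursor of the DVA neuron, the control inputs read 36.1 and 39.5 and the IPs 90.66 and 107.75. Its control IPs lay above both inputs (log2 ratio 1.36 ± 0.56, limma adjusted p = 0.245). In adr-2(-) nlp-12 read 83.2 and 107 in the inputs and 97.4 and 282 in the IPs, which overlapped. The sleep-related genes of the ALA neuron, nlp-8 and nlp-14, had log2 ratios of -0.37 ± 0.52 and 0.14 ± 0.50 in the control and of -0.64 ± 0.52 and 0.23 ± 0.50 in adr-2(-). For nlp-3 the control inputs read 174 and 211 and the IPs 141 and 110.2, and the adr-2(-) inputs read 269 and 294 and the IPs 117 and 535. Its groups overlapped in adr-2(-) and not in the control, where the IPs were lower (log2 ratio -0.62 ± 0.64).

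The intestinal gene nlp-40, a signal of the defecation motor program received by AEX-2, had control inputs of 514 and 619 and control IPs of 369.7 and 262, and adr-2(-) inputs of 884 and 1478 and IPs of 345 and 890.4. Its log2 ratios were -0.86 ± 0.50 and -1.04 ± 0.50 and neither passed. Of the genes with no assigned role, nlp-36 had the smallest adjusted p of all 67 in adr-2(-). Its inputs read 1146 and 1176 and its IPs 164 and 182 (log2 ratio -2.74 ± 0.36, limma adjusted p = 0.00237), against 376 and 435 and 237 and 147 in the control (-1.11 ± 0.36, limma adjusted p = 0.151).

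The highest ratios did not pass the test on the values as deposited, and in adr-2(-) their calls depended on scaling. They were those of nlp-67 (1.48 ± 0.66), nlp-99 (1.45 ± 0.46) and nlp-43 (1.43 ± 0.64), with limma adjusted p of 0.132, 0.051 and 0.136 there. With the same library total all of these passed as higher (log2 ratios 2.63, 2.62 and 2.59, limma adjusted p of 0.0145, 0.00656 and 0.0191), as they did with the same protein-coding total. The nlp-99 gene also passed with TMM, a pseudocount of 10, a minimum mean of 50 and DESeq2 (adjusted p from 0.0404 to 0.0488), and nlp-99 and nlp-67 passed without either control IP. For nlp-99 the inputs read 205 and 125 and the IPs 311 and 618. In the control they were those of nlp-20 (1.44 ± 0.68), nlp-60 (1.42 ± 1.12) and nlp-12, and nlp-60 rested on 5 and 1 input reads.

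**Figure D4:**
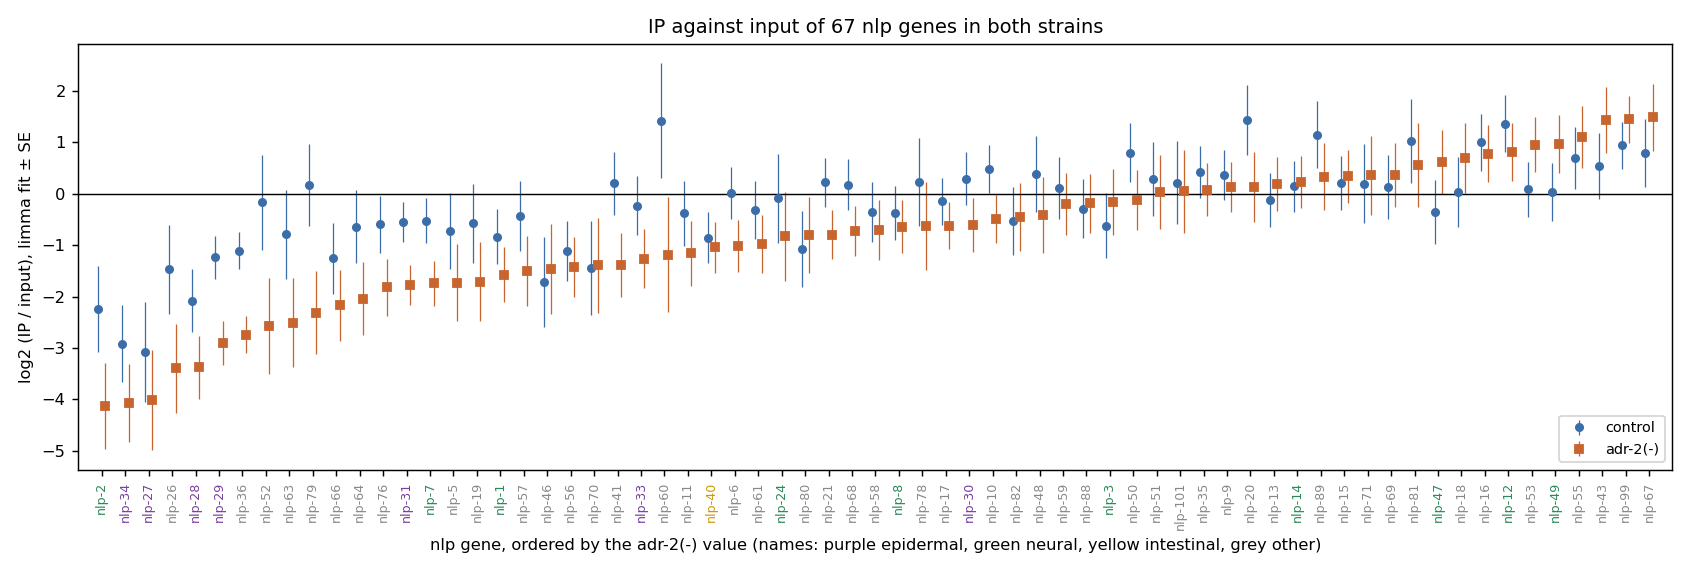
Fitted log2 ratio of IP to input (y axis) of 67 nlp genes in control (blue circles) and adr-2(-) animals (orange squares), ordered by the adr-2(-) value, with bars of 1 SE and gene names coloured by role. The lowest adr-2(-) values, from -4.12 to -2.90, include nlp-2 and the epidermal nlp-34, nlp-27, nlp-28 and nlp-29, and the highest is that of nlp-67 at 1.48.

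Exonic length went with the IP to input ratio too, with a Spearman's rho of 0.42 over 67 nlp genes and 0.51 over 13272 genes in adr-2(-), and of 0.22 and 0.18 in the control. In adr-2(-) the median log2 ratio of genes under 600 bases was -0.83 for 41 nlp genes and -1.35 for 1379 genes of all kinds, and that of genes of at least 600 bases was -0.62 for 26 nlp genes and 0.39 for 11893. Summed intestinal markers (8 genes, all above 0) stood at 20674 and 8856 in the control IPs and at 18615 and 29026 in those of adr-2(-), below the inputs of each strain. Summed neuronal markers stood at 13988 and 6914 in the control IPs and at 11926 and 14340 in those of adr-2(-). Summed muscle markers (7 genes, all above 0) stood at 80977 and 23910 and at 69880 and 79429, respectively, with a median log2 ratio of 2.37 and 4 of 7 called higher in adr-2(-), beside 2.20 and 7 of 10 for neurons. Of the muscle sums unc-54, whose untranslated region the array carries, made up 26031 and 9364 in the control IPs and 24029 and 33064 in the adr-2(-) IPs. The part of array RNA in these values was not tested. Summed epidermal markers stood at 34298 and 12678 and at 26666 and 5250, of which sqt-3 made up 31026 and 9431 and 23988 and 4050, and the median over the 6 tested was 0.92 in the control and -0.40 in adr-2(-). The part of length and of tissue content in the nlp ratios was not tested.

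Between the IPs of the 2 strains no nlp gene differed at an adjusted p of 0.05 by limma, edgeR or DESeq2 (background 1.53% higher and 0% lower) or of 0.001 (background 1.3% higher and 0% lower). Before adjustment limma gave a p under 0.05 for 0 of them in either direction (background 2.17% higher and 0.0904% lower). These backgrounds include rows with an unequal deposited mean, none an nlp gene, such as mex-5 (log2 change 8.44, limma adjusted p = 3.1e-05). The share of background calls from such rows was not counted. The median log2 change of the nlp genes was 0.78, against -0.04 over all genes. It rested on 1 library. Replicates numbered 1 of the 2 strains had a median log2 difference of -0.13 over the 67 genes (SD 0.26), and those numbered 2 one of 1.70 (SD 0.55). Without adr-2(-) IP replicate 2 the fitted median was 0.13, and without adr-2(-) IP replicate 1 it was 1.47. In 12 of the 67 both adr-2(-) IPs exceeded both control IPs (17.9%, background 6.45%) and in none were both lower (background 8.43%).

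The IPs of nlp-49 varied within adr-2(-) and those of nlp-24 within both strains. For nlp-49 the control IPs read 479 and 561 and the adr-2(-) IPs 429 and 1692 normalised counts, so that the groups overlapped (log2 change 0.72 ± 0.57). For nlp-24 the control IPs read 1682 and 189 and the adr-2(-) IPs 2142 and 966. Its fitted log2 change of 1.35 ± 0.86 was the highest of the 67, and without control IP replicate 2 it was -0.23. It supplied 18.2% and 3.21% of all nlp reads in the control IPs and 23.1% and 5.29% in the adr-2(-) IPs.

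The ratio of ratios, (IP over input in adr-2(-)) over (IP over input in control), asked whether association with ADR-1 differed when adr-2 was absent. No nlp gene passed at an adjusted p of 0.05 by limma, edgeR or DESeq2 (background 1.93% higher and 0.158% lower) or of 0.001 (background 1.37% higher and 0% lower). Before adjustment limma gave a p under 0.05 for 0 higher genes (background 10.6%) and 2 lower ones (2.99%, background 7.2%). The backgrounds again include rows with an unequal deposited mean, such as mex-5 (12.24), in a share that was not counted. The median of the nlp genes was -0.74, against 0.02 over all genes. With the same library total the nlp median turned to 0.69 and that of all genes to 1.41, and with the same protein-coding total they were 0.14 and 0.87, so that the nlp genes stayed 0.72 and 0.73 below all genes. Without adr-2(-) IP replicate 1 the nlp median was 0.11, and without replicate 2 it was -1.14. Among genes under 600 exonic bases the median as deposited was -0.81 for 41 nlp genes and -1.12 for 1379 genes of all kinds. Among those of at least 600 bases it was -0.33 for 26 nlp genes and 0.14 for 11893 genes. The part of length in the ratio of ratios was not tested.

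The lowest values of the ratio of ratios were those of nlp-60 (-2.61 ± 1.58), nlp-79 (-2.48 ± 1.14) and nlp-52 (-2.40 ± 1.32), each with 1 or 2 reads in control input replicate 2. The highest were those of nlp-47 (0.97 ± 0.88), nlp-49 (0.94 ± 0.81) and nlp-43 (0.88 ± 0.90). For nlp-29 the ratio of ratios was -1.66 ± 0.60 (limma adjusted p = 0.202) and for nlp-36 -1.63 ± 0.50 (adjusted p = 0.146), so the lower IP of these genes in adr-2(-) was not shown to differ from that in the control.

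The genes that make, store and receive neuropeptides were read in the same fit at an adjusted p under 0.05 and a log2 change of at least 1. Over all genes 14.3% were higher and 10.4% lower in the adr-2(-) IPs against inputs. Of 13 peptide-processing genes 5 were higher and 0 lower, with a median log2 ratio of 1.05 against -0.70 for the nlp genes. The convertase gene egl-3 of adr-2(-) animals had inputs of 621 and 917 and IPs of 1530.4 and 4933 (log2 ratio 1.86, limma adjusted p = 0.0326), whereas sbt-1, which encodes the chaperone of EGL-3, read 3195 and 3616 in the inputs and 764 and 2698 in the IPs (-1.24, adjusted p = 0.121). Of 12 dense core vesicle genes 5 were higher and 1 lower, with ida-1 at a log2 ratio of 1.83 (adjusted p = 0.039). Of 9 receptor genes tested 8 had a log2 ratio above 0, with a median of 2.15 against 0.23 over all genes. Only 1 of them passed as higher, a share below that over all genes. It was the nlp-49 receptor gene seb-3 (log2 ratio 2.79, limma adjusted p = 0.0288).

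The caenacin (cnc) genes encode antimicrobial peptides of the epidermis similar to those of the nlp-29 cluster. Of 8 tested, 5 were lower and 0 higher in the adr-2(-) IPs, with a median log2 ratio of -2.15, against 10.4% of all genes lower. Between the inputs 2 rose and 0 fell, against 5.03% of all genes higher, with a median change of 1.84. The cnc-10 gene rose from 126 and 137 to 423 and 401 (log2 change 1.64, limma adjusted p = 0.0378), and cnc-4, at 325 and 485 against 1178 and 962, did not pass (limma adjusted p = 0.0584). In the control none of the 4 lists had a gene that passed in the IP to input comparison. The lists were of unlike length and expression, and their difference from the nlp genes was not tested.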

How the data were processed

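Poly(A)-selected RNA of 4 inputs and 4 IPs was sequenced by the authors as stranded 100-nt single-end reads. Per the paper's methods, the authors kept reads that STAR mapped uniquely to ce11 (WormBase WS275), counted them per gene on the annotated strand with featureCounts and divided the counts by DESeq2 size factors. The processing notes name STAR 2.7.8a, and the methods another version. The deposited signal per gene and library is this normalised count, and the deposited mean over the 8 libraries was used only as a check. The authors' own comparison columns (a log2 fold change with its standard error, a test score and p-values) were deposited too and were not used.

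Reads were recovered by dividing each value by that of 1 read, and 100% of values came out whole (tolerance of 0.006 units plus 2e-05 of the value) in rows whose deposited mean equalled that of the 8 values. In 223 rows it did not (by more than 0.02 units or 0.1%), of which 0 were nlp genes. Rows of this kind that reached the minimum mean were kept in the main fit and in the background shares. One identifier with 2 rows was kept once. Symbols, coordinates and coding sequences came from Ensembl and RefSeq annotations of WBcel235, the assembly of ce11. The longest coding transcript was used per gene.

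The fit was limma 3.58.1 (R 4.3.3, eBayes with trend) on log2(normalised count + 1) with 4 group means. It covered the 13276 genes whose mean reached 10. Alternatives were pseudocounts of 0.1 and 10, a minimum mean of 50 or none, rescaled totals, TMM, edgeR 4.0.16 and DESeq2 1.42.0 on recovered reads, a replicate block, and leaving out each library. Scripts were tested on simulated data. Same-numbered samples did not deviate together, except the IPs of the 2 strains (correlation 0.46 over 13061 genes; otherwise -0.01 to 0.04), so numbers were not taken to pair the samples, although per the methods each input was a portion of a lysate used for precipitation. Over 67 nlp genes, same-numbered IPs of the 2 strains were more alike (Pearson's r 0.988 and 0.945) than the IPs of 1 strain (0.844 in control and 0.852 in adr-2(-)). The main fit leaves this likeness in its error. The smallest p of an exact permutation test of 2 against 2 exceeds any threshold used, so no single-value test was run. Read limits cover counting error only.

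Genes named were those called in any contrast, the 3 highest and 3 lowest changes of each contrast, the 6 highest mean input and IP values, genes with no input read, genes with a known role and the 2 highest of each other list. The nlp genes, their roles and the lists were chosen with earlier results of these data known.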

Additional observations from a re-analysis of the deposited data

How the results depend on the processing

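Each comparison was refitted under 21 other settings, of which the rescaling to the same protein-coding total was chosen after seeing the data. For IP against input in the control, the 0 nlp genes lower at an adjusted p under 0.05 became 1 with a replicate block (by number or within strain), 2 in edgeR with the block and 3 in DESeq2, the median became -0.36 with the same library total, and leaving out 1 library gave 0 to 3 lower (2 or 3 without control IP replicate 1 or either adr-2(-) IP), 0 to 1 higher and a median of -0.34 to 0.20. In adr-2(-), the 10 lower at 0.05 became 3 to 17 and the 0 higher 0 to 2 on leaving out 1 library (3 without either adr-2(-) input, 5 without adr-2(-) IP replicate 1 and 17 without replicate 2), with 0 to 2 lower at 0.001 and a median of -1.14 to -0.25. The higher calls there became 1 with a pseudocount of 10, a minimum mean of 50, TMM or DESeq2, 7 with the same total and 8 with the same protein-coding total (medians 0.47 and 0.36), and the lower calls at 0.001 became 6 in DESeq2.

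Between the inputs, the 8 nlp genes higher at 0.05 became 4 with the replicate block within strain, 2 with no filter, 0 with the same total, 1 with the same protein-coding total, 4 in edgeR and 16 in DESeq2 (1 at 0.001). Leaving out 1 library gave 0 to 18, with 0 without any 1 of the 4 inputs, 16 to 18 without control IP replicate 1 or 2 or adr-2(-) IP replicate 1, and medians of 1.29 to 1.46. The median was 1.23 with a pseudocount of 10, 1.30 with no filter, 0.13 with the same total and 0.42 with the same protein-coding total. For the IPs, leaving out 1 library gave 0 to 2 higher and a median of 0.13 to 1.47. For the ratio of ratios it gave 0 to 2 lower and a median of -1.14 to 0.11, and the same total turned the median to 0.69. The replicate block changed no other call count by over 1.5 times.

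Signs turned for genes that had not passed. In the inputs, leaving out 1 library gave -0.37 to 0.099 for nlp-47 and -0.25 to 0.044 for nlp-53. In the IPs it gave -0.46 to 0.23 for nlp-36 (0.020 with the same total), -1.58 to 0.44 for nlp-60 (0.23 without control IP replicate 1), -0.40 to 0.13 for nlp-79, and, with the lowest value without control IP replicate 2, -0.23 to 2.92 for nlp-24, -0.42 to 2.66 for nlp-26 and -0.16 to 2.28 for nlp-78. For nlp-49 the ratio of ratios ran from -0.0504 to 1.93. The causes were not tested. With 2 libraries a group and fewer than 3 reads in some inputs, low genes such as nlp-60 have wide errors.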
